A study of Mus musculus with 8 samples.

Results

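Simple epithelia are marked by a small set of intermediate filament, cell junction and regulatory genes, and 10 of these were followed in mouse embryoid bodies with and without Prdm16. They were the keratins Krt7, Krt8, Krt18 and Krt19, the adhesion genes Cdh1 and Epcam, the claudins Cldn6 and Cldn7, and the regulators Grhl2 and Esrp1. Members were the lines of the deposited table of fragments whose gene name is one of these symbols. Each symbol matched 1 locus that carried no other gene name, so 10 genes out of 52281 named loci were described, and all 10 passed the filter on low values.

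Embryoid bodies are aggregates of embryonic stem cells that differentiate into a mixture of cell types in culture. All were collected at day 9, on a C57BL/6 background, in serum-containing medium. The 4 groups held 2 libraries each. They were a Prdm16 knockout, its wild-type set (Prdm16 control), a PR domain knockout whose sample titles place it at exon 4, and a wild-type set of its own (PR domain control). Prdm16 is a zinc finger transcription factor, and its PR domain is related to the SET domain of histone methyltransferases. The labels do not say whether the 2 libraries of a group came from separate cultures, nor how many clones of cells each genotype stood for. P-values therefore rest on how far libraries of the same group lie apart, which may be technical, and a genotype and its clone cannot be told apart. That spread was pooled over the 4 groups and drawn towards a trend over all loci (4 residual and 25.4 prior degrees of freedom). A gene's SE is therefore the same in both knockout comparisons and does not show the spread of 1 group. Prdm16 itself reached 11.2 and 1.10 normalised fragments in the Prdm16 knockout libraries (9 and 1 fragments), against 24.4 and 26.3 in the Prdm16 control. Its log2 fold change was -2.38 ± 0.50 (adjusted p = 0.000306). It reached 23.3 and 15.7 in the PR domain knockout libraries, against 44.6 and 22.7 in the PR domain control, with overlapping groups (-0.71 ± 0.50, adjusted p = 0.377).

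Keratins form filaments from obligate pairs of a type II and a type I chain. Krt7 and Krt8 are type II, Krt18 and Krt19 are type I, and Krt8 with Krt18 is the first keratin pair made in the mouse embryo. E-cadherin (Cdh1) holds epithelial cells together at adherens junctions, and claudins form the strands of tight junctions. Grainyhead-like 2 (Grhl2) is a transcription factor that activates Cdh1 and claudin genes, and Esrp1 directs epithelial splicing of transcripts. Repressors of the Snail and Zeb families bind E-box motifs in the promoters of several of these genes.

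Krt8 and Krt18 lie on chromosome 15, head to head, with 23697 bases between the 2 genes in GENCODE M21 (GRCm38). Krt8 spans chr15:101996698-102004482 on the minus strand and Krt18 spans chr15:102028180-102032027 on the plus strand. Krt7, at chr15:101411043-101430313 on the plus strand, is on the same chromosome. Promoters of 4 genes are shown, because these 3 keratins share a chromosome and include the Krt8 and Krt18 pair, and because Epcam held the motif bound by the Grainyhead family. Each is 300 bases long, 250 before and 50 from the annotated start, read 5′ to 3′ on the gene's strand from RefSeq (GRCm38.p6). They are Krt7 at chr15:101412153-101412452 (plus strand), Krt8 at chr15:102004293-102004592 (minus strand), Krt18 at chr15:102027966-102028265 (plus strand) and Epcam at chr17:87635729-87636028 (plus strand). Capitals mark ACCGGT, the Grainyhead core, and CACCTG or its reverse complement CAGGTG, an E-box of the Snail and Zeb type.
Krt7: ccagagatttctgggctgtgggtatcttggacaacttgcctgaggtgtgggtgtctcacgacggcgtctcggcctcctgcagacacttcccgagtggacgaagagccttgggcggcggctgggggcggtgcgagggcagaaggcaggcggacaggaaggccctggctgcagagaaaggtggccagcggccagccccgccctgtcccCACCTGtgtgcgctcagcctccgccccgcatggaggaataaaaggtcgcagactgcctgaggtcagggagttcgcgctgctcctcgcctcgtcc
Krt8: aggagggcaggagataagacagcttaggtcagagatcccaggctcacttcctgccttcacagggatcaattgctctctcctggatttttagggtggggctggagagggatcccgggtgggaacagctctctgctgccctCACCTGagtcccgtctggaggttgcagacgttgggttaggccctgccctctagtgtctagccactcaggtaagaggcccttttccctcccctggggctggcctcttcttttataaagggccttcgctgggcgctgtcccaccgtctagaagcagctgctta
Krt18: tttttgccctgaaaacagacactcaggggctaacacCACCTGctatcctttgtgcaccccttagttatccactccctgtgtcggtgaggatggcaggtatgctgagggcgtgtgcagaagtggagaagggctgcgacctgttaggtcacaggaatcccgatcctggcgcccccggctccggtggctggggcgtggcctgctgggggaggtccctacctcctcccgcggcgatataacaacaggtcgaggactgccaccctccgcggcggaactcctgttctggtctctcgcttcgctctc
Epcam: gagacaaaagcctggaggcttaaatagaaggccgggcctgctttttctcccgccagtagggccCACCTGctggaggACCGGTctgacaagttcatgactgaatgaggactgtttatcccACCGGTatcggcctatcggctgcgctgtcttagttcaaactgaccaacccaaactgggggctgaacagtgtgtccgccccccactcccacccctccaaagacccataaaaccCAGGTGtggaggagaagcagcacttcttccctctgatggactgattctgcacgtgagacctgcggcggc

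The starts are those of RefSeq. For Krt7, Krt8 and Krt18 they lie inside the GENCODE spans given above, and the whole Krt7 window does too. The E-box stood 44 bases upstream of the Krt7 start, 111 bases upstream of Krt8 and 214 bases upstream of Krt18. Epcam held it at 187 bases on its own strand and at 19 bases on the opposite strand, and it held ACCGGT at 174 and at 131 bases. The 2 motifs did not overlap. RefSeq windows were found for 6 of the 10 genes and for 7 starts, since Cldn7 had 2. The E-box was in 6 of these 7 windows and in 20.21% of all 32851 promoter windows of that length, and ACCGGT was in 1 of the 7 and in 2.33% of all windows. Both strands were searched, and a match is a description of the letters only.

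Levels between genes were compared per length, as the deposited FPKM (fragments scaled by transcript length and by library size). FPKM did not follow normalised fragments by 1 fixed factor per gene. Grhl2 had 58.3 normalised fragments in both Prdm16 knockout libraries, but 2.73 and 1.45 FPKM. Krt19 had 568 and 548 normalised fragments there, but 68.9 and 75.4 FPKM. Spread between libraries in FPKM, and in orders, shares and tests drawn from it, is thus not spread in fragments alone. Krt18 had the highest FPKM of the 10 genes in every group, at 333 ± 6.86 in the Prdm16 knockout, 279 ± 0.00778 in the Prdm16 control, 191 ± 12.9 in the PR domain knockout and 193 ± 2.52 in the PR domain control (SD, n = 2 each). Cldn6 and then Krt8 followed in every group, at 117 to 182 and 106 to 149 FPKM. Grhl2 had the lowest FPKM in every group, at 2.09 ± 0.905 in the Prdm16 knockout, 4.67 ± 1.10 in the Prdm16 control, 4.13 ± 0.601 in the PR domain knockout and 6.51 ± 2.21 in the PR domain control. Neighbours in this order overlapped between libraries for Epcam and Krt19 in the Prdm16 knockout, for Cldn7 and Krt19 in the Prdm16 control, and for Epcam, Cldn7 and Cdh1 in the PR domain control.

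In the Prdm16 knockout, Krt7, Krt18 and Cldn7 rose, and Krt19, Cdh1, Epcam, Cldn6, Grhl2 and Esrp1 fell, while Krt8 did not pass the test. The largest fall was that of Grhl2, to 36.1% of the mean of the Prdm16 control, and the largest rise was that of Krt7, at 1.44-fold. These are 9 of 10 genes at an adjusted p below 0.05, 3 higher and 6 lower. Of all 16623 loci tested, 39.1% were called in this comparison, 18% higher and 21.1% lower. That balance turned with the scaling: 2987 loci were higher and 3515 lower here, against 3582 and 2928 under TMM, where 3 of the 10 genes were higher and 4 lower. The libraries of the 2 groups did not overlap for 10 of the 10 genes, and 67.8% of all loci did not overlap. The median log2 fold change of the 10 genes was -0.16, beside -0.03 over all loci.

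In the PR domain knockout, Krt7 rose, and Cdh1, Grhl2 and Esrp1 fell. These are 4 of 10 genes, and 19.2% of all loci were called, 8.48% higher and 10.7% lower. Here too the balance turned, with 1410 loci higher and 1780 lower, against 1667 and 1415 under DESeq2's scaling. The other 6 genes did not pass, and their log2 fold changes lay between -0.09 and 0.05. The 2 groups did not overlap for 6 of the 10 genes, beside 56.6% of all loci. The median log2 fold change was -0.04, beside -0.03 over all loci.

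**Figure D1:**
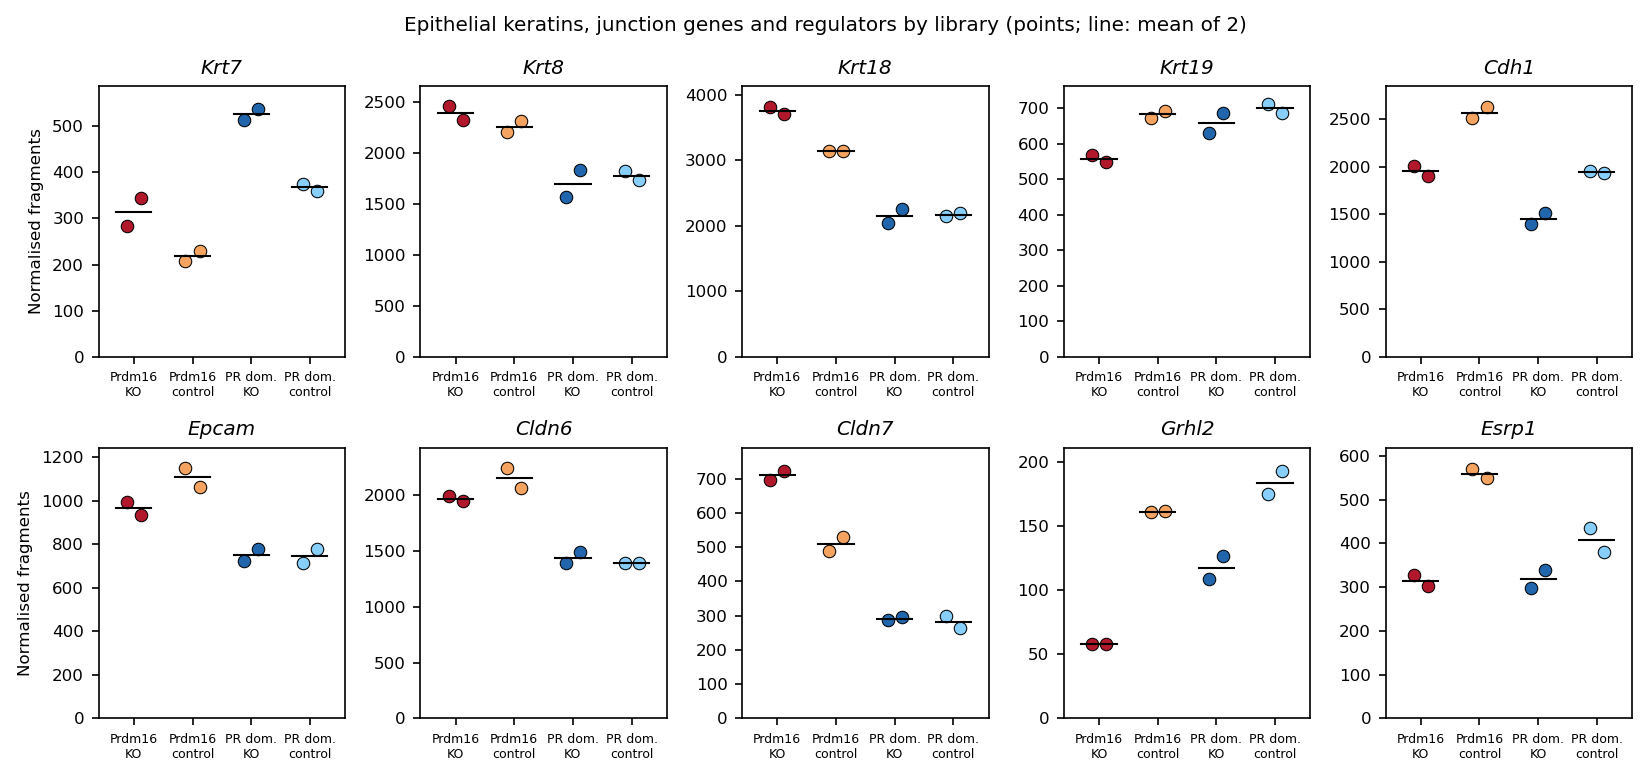
Normalised fragments (vertical axes, from 0) of each of the 10 genes in the 2 libraries of each group, as points, with a line at the mean. Krt7 is higher in each knockout than in its own control, Cdh1, Grhl2 and Esrp1 are lower in each knockout than in its own control, and Krt18 and Cldn7 stand above the Prdm16 control in the Prdm16 knockout.

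Levels below are normalised fragments, the fragments of a locus divided by 1 size factor per library. Fold changes are limma's, on log2(normalised fragments + 1), with their SE and the Benjamini-Hochberg adjusted p over all 16623 loci. In these bulk samples, fewer cells of a type and less RNA per cell cannot be told apart.

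Krt7, a type II keratin of simple and ductal epithelia, was higher in both knockouts. Its level was 283 and 345 normalised fragments in the Prdm16 knockout libraries, against 208 and 229 in the Prdm16 control (log2 fold change 0.52 ± 0.09, adjusted p = 4.92e-05). Its level was 514 and 538 in the PR domain knockout libraries, against 375 and 360 in the PR domain control (0.51 ± 0.09, adjusted p = 0.000113). Neither knockout overlapped its control. On log2(FPKM + 1) the rise in the PR domain knockout did not pass (0.38, adjusted p = 0.215). The difference between the 2 effects was 0.00 with an SE of 0.13 (adjusted p = 0.998). Both Prdm16 knockout libraries nevertheless lay below the 2 PR domain control libraries, since Krt7 was 1.68-fold higher in the PR domain control than in the Prdm16 control.

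Krt18, the type I partner of Krt8, had 3815 and 3706 normalised fragments in the Prdm16 knockout, against 3148 and 3148 in the Prdm16 control (0.26 ± 0.04, adjusted p = 2.94e-05). The PR domain knockout had 2050 and 2256, against 2153 and 2193 in the PR domain control (-0.01 ± 0.04, adjusted p = 0.873). The Prdm16 knockout libraries were the highest of all 8, and the PR domain groups overlapped. The rise in the Prdm16 knockout exceeded the effect of the PR domain knockout by 0.27 ± 0.06 (adjusted p = 0.00292). The pseudogene copies Gm17847 and Gm5200 are 86.48% and 90.45% identical to Krt18 over 1065 and 1267 bases. They held 28.7 to 70.7 and 12.6 to 41.8 normalised fragments.

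Krt8, the type II partner of Krt18, had 2464 and 2322 normalised fragments in the Prdm16 knockout, against 2210 and 2314 in the Prdm16 control (0.08 ± 0.06, adjusted p = 0.259). Levels were 1568 and 1833 in the PR domain knockout, against 1821 and 1736 in the PR domain control (-0.07 ± 0.06, adjusted p = 0.450). The Prdm16 groups lay just apart, and the PR domain groups overlapped. edgeR's quasi-likelihood test on recovered fragments called the rise in the Prdm16 knockout, at 0.13 (adjusted p = 0.0429). Without PR domain knockout replicate 2, Krt8 was called lower in the PR domain knockout (-0.18, adjusted p = 0.0245), and its difference between the 2 knockouts passed too (0.26, adjusted p = 0.0126). The processed pseudogene Krt8-ps is 98.62% identical to Krt8 over 941 bases and held 25.9 to 33.8% as many normalised fragments, so how reads were split between these loci is uncertain. With Krt8-ps added in, a step chosen after seeing the data, the log2 fold changes were 0.06 (adjusted p = 0.366) in the Prdm16 knockout and -0.09 (adjusted p = 0.251) in the PR domain knockout.

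Krt19 (chr11:100140810-100148665, minus strand), the smallest keratin and a type I chain of simple and ductal epithelia, fell in the Prdm16 knockout. It had 568 and 548 normalised fragments there, against 673 and 692 in the Prdm16 control (-0.29 ± 0.07, adjusted p = 0.000796). Levels were 630 and 687.343 in the PR domain knockout, against 711 and 687.365 in the PR domain control (-0.09 ± 0.07, adjusted p = 0.419). The Prdm16 knockout libraries were the lowest of all 8, while 1 library of each PR domain group stood at nearly the same level. The difference between the 2 effects was -0.20 ± 0.09 and did not pass (adjusted p = 0.146).

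In the Prdm16 knockout, then, Krt7 and Krt18 rose, Krt19 fell and Krt8 did not pass, while Krt7 alone of the 4 keratins was called in the PR domain knockout. The summed FPKM of the 4 was 582 and 572 in the Prdm16 knockout, against 523 and 533 in the Prdm16 control, and it was 397 and 433 in the PR domain knockout, against 424 and 419 in the PR domain control. Krt19 made up 11.8% and 13.2% of that sum in the Prdm16 knockout, against 17.9% and 17.6% in the Prdm16 control. Its share was 20.5% and 19.4% in the PR domain knockout, against 22.5% and 20.9% in the PR domain control. Krt19 thus held a smaller part in both Prdm16 knockout libraries than in any other. Krt7 made up 3.63% and 4.22% in the Prdm16 knockout, against 2.40% and 2.96% in the Prdm16 control. It made up 9.06% and 8.05% in the PR domain knockout, against 5.81% and 6.99% in the PR domain control, so its share was higher in each knockout than in its own control. The FPKM of Krt8 over that of Krt18 was 0.454 and 0.441 in the Prdm16 knockout, against 0.494 and 0.517 in the Prdm16 control. It was 0.538 and 0.571 in the PR domain knockout, against 0.595 and 0.557 in the PR domain control, where the groups overlapped. These shares and ratios were not tested.

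**Figure D2:**
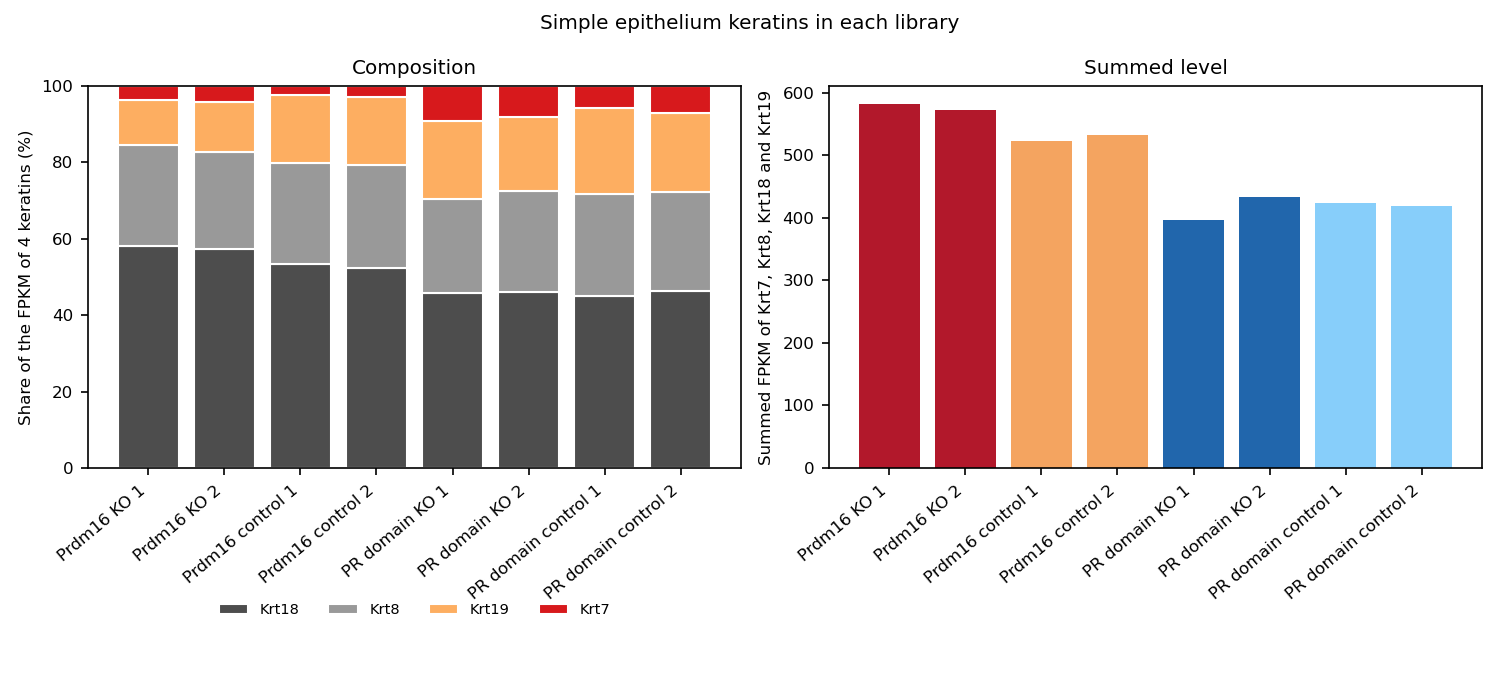
Left, the share of Krt18, Krt8, Krt19 and Krt7 in their summed FPKM (%, stacked bars, 1 per library); right, that sum in FPKM. Krt18 makes up 58.1% and 57.3% in the Prdm16 knockout, against 53.4% and 52.3% in the Prdm16 control, and the sum is highest in the 2 Prdm16 knockout libraries.

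Cdh1 (chr8:106603351-106670246, plus strand), which encodes E-cadherin, was lower in both knockouts. Levels were 2011 and 1909 normalised fragments in the Prdm16 knockout, against 2516 and 2630 in the Prdm16 control (-0.39 ± 0.05, adjusted p = 1.23e-07). Levels were 1399 and 1514 in the PR domain knockout, against 1958 and 1934 in the PR domain control (-0.42 ± 0.05, adjusted p = 8.68e-08). Levels were 76.2% and 74.8% of those of the Prdm16 control and the PR domain control. The difference between the 2 effects was 0.03 ± 0.07 (adjusted p = 0.841). Cdh2, the N-cadherin gene of mesenchymal and neural cells, did not pass in either knockout (0.02 and 0.01). The ratio of Cdh1 to Cdh2 normalised fragments was 2.18 and 2.03 in the Prdm16 knockout, against 2.66 and 2.96 in the Prdm16 control, and 1.37 and 1.51 in the PR domain knockout, against 1.93 and 1.94 in the PR domain control.

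Epcam (chr17:87635979-87651129, plus strand), a surface adhesion protein of epithelial and pluripotent cells, had 996 and 936 normalised fragments in the Prdm16 knockout, against 1152 and 1063 in the Prdm16 control (-0.20 ± 0.06, adjusted p = 0.0144). The PR domain knockout had 724 and 777, against 715 and 779 in the PR domain control (0.01 ± 0.06, adjusted p = 0.962). The PR domain groups overlapped. The fall in the Prdm16 knockout no longer passed without Prdm16 knockout replicate 2 (-0.15, adjusted p = 0.138) or without Prdm16 control replicate 1 (-0.14, adjusted p = 0.193). It did not pass in 8 of 21 alternatives. Among these were TMM scaling (-0.15, adjusted p = 0.0726), edgeR (-0.15, adjusted p = 0.0571) and DESeq2 (-0.16, adjusted p = 0.188). The difference between the 2 effects was -0.20 (adjusted p = 0.127), and it passed under total-fragment scaling (-0.26, adjusted p = 0.0442).

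Cldn6 (chr17:23679249-23682446, plus strand), a claudin of embryonic epithelia, had 1989 and 1947 normalised fragments in the Prdm16 knockout, against 2247 and 2067 in the Prdm16 control (-0.13 ± 0.05, adjusted p = 0.0390). The PR domain knockout had 1393 and 1488, against 1388.34 and 1388.15 in the PR domain control (0.05 ± 0.05, adjusted p = 0.538). The fall in the Prdm16 knockout did not pass in 11 of 21 alternatives, with values of -0.19 to -0.07 over all 21. It was lost without Prdm16 knockout replicate 1 (adjusted p = 0.0770), Prdm16 knockout replicate 2 (0.167), Prdm16 control replicate 1 (0.403), PR domain control replicate 1 (0.0518) or PR domain control replicate 2 (0.0518). The difference between the 2 effects, -0.18 ± 0.07, did not pass (adjusted p = 0.0767). It passed without Prdm16 control replicate 2 (-0.24, adjusted p = 0.0378), without PR domain knockout replicate 1 (-0.23, adjusted p = 0.0360) and under total-fragment scaling (-0.24, adjusted p = 0.0178).

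Cldn7 (chr11:69964779-69967885, plus strand), a claudin of many simple epithelia, rose in the Prdm16 knockout, where the other claudin fell. It had 697 and 724 normalised fragments there, against 490 and 530 in the Prdm16 control (0.48 ± 0.08, adjusted p = 1.91e-05). It had 286 and 297 in the PR domain knockout, against 298 and 264 in the PR domain control (0.05 ± 0.08, adjusted p = 0.719). Cldn7 was highest in the 2 Prdm16 knockout libraries, and the PR domain groups overlapped. The effect in the Prdm16 knockout was the higher by 0.43 ± 0.11 (adjusted p = 0.00967). That difference did not pass without Prdm16 control replicate 1 (0.37, adjusted p = 0.0636) or without PR domain control replicate 1 (0.34, adjusted p = 0.0802). On log2(FPKM + 1) the rise in the Prdm16 knockout was 0.52, with an adjusted p of 0.0900.

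Grhl2 (chr15:37233036-37363569, plus strand) showed the largest change of the 10 genes in the Prdm16 knockout. Its level was 58.3 and 58.3 normalised fragments there, from 47 and 53 fragments, against 161 and 162 in the Prdm16 control (-1.45 ± 0.14, adjusted p = 1.09e-09). It had 109 and 127 in the PR domain knockout, against 175 and 193 in the PR domain control (-0.65 ± 0.14, adjusted p = 0.000960). Both knockouts lay below all 4 wild-type libraries. The fall was deeper in the Prdm16 knockout by -0.81 ± 0.20 (adjusted p = 0.00466). On log2(FPKM + 1) it was -0.90 (adjusted p = 0.0928) in the Prdm16 knockout and -0.52 (adjusted p = 0.403) in the PR domain knockout. Gm16136 overlaps Grhl2 on the opposite strand. Its locus had 0 and 4.40 normalised fragments in the Prdm16 knockout, against 22.3 and 28.2 in the Prdm16 control, and 14.4 and 15.7 in the PR domain knockout, against 26.4 and 25.8 in the PR domain control. No strand setting was given in the sources used here, so how reads of the stretch they share were split between these 2 loci is uncertain.

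Esrp1 (chr4:11331933-11386783, minus strand), the epithelial splicing regulator, had 328 and 301 normalised fragments in the Prdm16 knockout, against 570 and 548 in the Prdm16 control (-0.83 ± 0.09, adjusted p = 5.56e-09). It had 299 and 339 in the PR domain knockout, against 435 and 381 in the PR domain control (-0.35 ± 0.09, adjusted p = 0.00329). Like Grhl2, Esrp1 was below all 4 wild-type libraries in both knockouts, and its fall was deeper in the Prdm16 knockout, by -0.48 ± 0.12 (adjusted p = 0.00704). That difference did not pass without PR domain knockout replicate 2 (-0.38, adjusted p = 0.0556) or without PR domain control replicate 2 (-0.38, adjusted p = 0.0650). The fall in the PR domain knockout did not pass with DESeq2 (-0.32, adjusted p = 0.0790), without PR domain knockout replicate 1 (-0.26, adjusted p = 0.0905) or without PR domain control replicate 1 (-0.26, adjusted p = 0.119). It was -0.20 (adjusted p = 0.426) on log2(FPKM + 1). Gm26663, which overlaps Esrp1 on the opposite strand, had 3.30 to 13.2 normalised fragments.

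**Figure D3:**
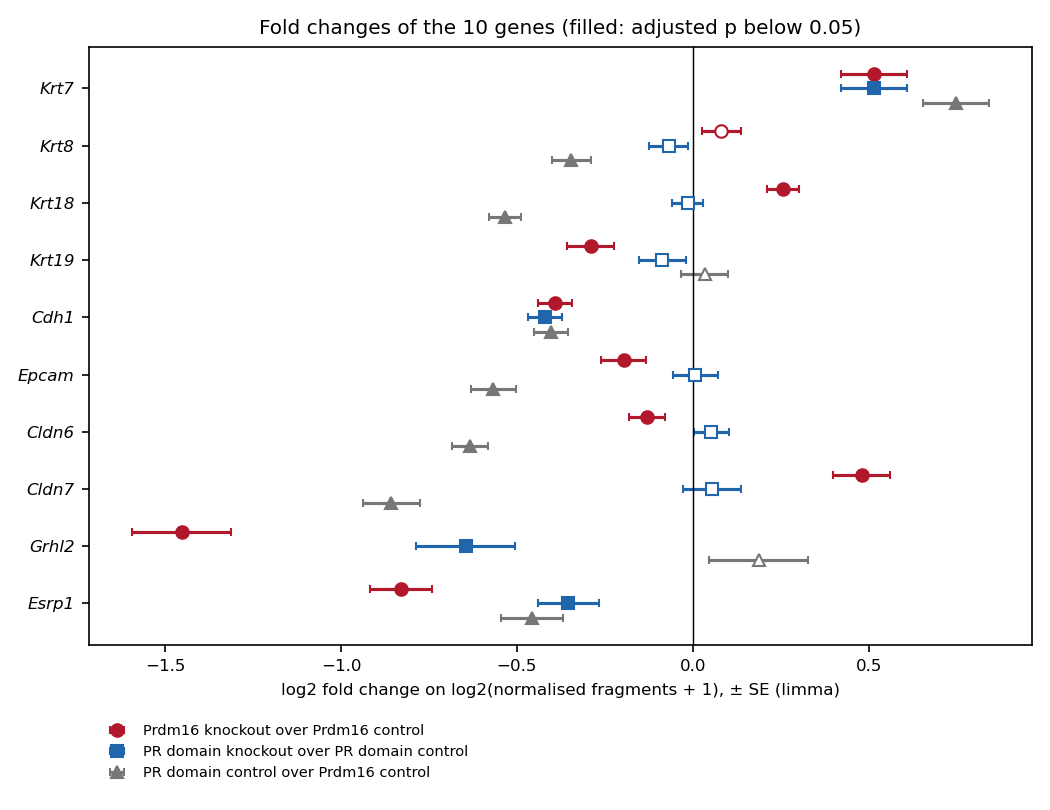
Log2 fold changes on log2(normalised fragments + 1) (horizontal axis, ± SE) of the 10 genes in the Prdm16 knockout over the Prdm16 control (circles), the PR domain knockout over the PR domain control (squares) and the PR domain control over the Prdm16 control (triangles). Filled symbols have an adjusted p below 0.05: 9, 4 and 8 genes, with Grhl2 at -1.45 in the Prdm16 knockout the farthest from 0.

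The effects of the 2 knockouts differed for 4 of 10 genes, beside 16.4% of all loci (8.6% higher and 7.81% lower). Krt18 and Cldn7 were higher, and Grhl2 and Esrp1 lower, in the Prdm16 knockout relative to the PR domain knockout, each against its own control. The other 6 genes did not pass this test. DESeq2 called 1 of the 10, Krt18, total-fragment scaling called 6, with Epcam and Cldn6 lower, and log2(FPKM + 1) called 0.

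The 2 wild-type sets differed from each other in most of these genes. Krt7 was higher in the PR domain control than in the Prdm16 control (0.75 ± 0.09, adjusted p = 1.63e-07), and Krt8, Krt18, Cdh1, Epcam, Cldn6, Cldn7 and Esrp1 were lower. These are 8 of 10 genes, and 33% of all loci were called, 16.3% higher and 16.7% lower. The libraries did not overlap for 9 of the 10 genes, beside 65.2% of all loci. Among the 7 lower genes the largest gap was that of Cldn7, with -0.86 ± 0.08 (adjusted p = 6.66e-10), followed by Cldn6 (-0.63 ± 0.05, adjusted p = 1.33e-11), Epcam (-0.57 ± 0.06, adjusted p = 2.10e-08) and Krt18 (-0.53 ± 0.04, adjusted p = 4.44e-11). Krt19 (0.03 ± 0.07) and Grhl2 (0.19 ± 0.14) did not pass. Krt8 (-0.34, adjusted p = 0.0574) and Esrp1 (-0.44, adjusted p = 0.0596) did not pass on log2(FPKM + 1). For Krt7, Krt8, Krt18, Epcam, Cldn6 and Cldn7 the log2 gap between the wild-type sets was larger in size than either knockout effect, a difference that was not tested. Set against the range of all 4 wild-type libraries, both Prdm16 knockout libraries lay above it for 3 genes (Krt8, Krt18 and Cldn7) and below it for 3 (Krt19, Grhl2 and Esrp1). Both PR domain knockout libraries lay above it for 1 gene (Krt7) and below it for 3 (Cdh1, Grhl2 and Esrp1). Over all loci tested, 19.3% lay above and 23.4% below that range in the Prdm16 knockout, and 15.7% above and 20.6% below it in the PR domain knockout. Of the 10, Grhl2 and Esrp1 lay outside this range on the same side in both knockouts. The share of all loci for which that held was not counted, so it cannot be read as particular to these genes.

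Across the 8 libraries, the 10 genes did not share 1 pattern. Krt18 followed Cldn7 most closely (Pearson's r = 0.99), Epcam followed Cldn6 (0.98), Krt8 followed Krt18 (0.97), and Krt19 followed Grhl2 (0.96), while Krt7 ran against Cdh1 (-0.96). These values are descriptions over 8 libraries that fall into 4 groups. Among 8823 other loci with a mean of at least 100 normalised fragments, Ddx54, Rnf220, Abcf1, Fkbp4 and Dhx16 were most like the mean of the 10 genes (r of 0.98 to 0.99). Rfx3 was most like Grhl2, Abcd4 most like Cldn7 and Mgat4a most like Krt7, each with an r of 1.00 after rounding. Each was picked as the highest r among the 8823 loci, so a value near 1 was likely, and these matches were not tested.

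Other genes of epithelial junctions were called in both directions. The shares called in the lists that follow stand beside 39.1% (Prdm16 knockout) and 19.2% (PR domain knockout) of all loci, and they describe these lists only. Of 21 tested tight junction and apical polarity genes outside the 10, 6 were higher and 7 lower in the Prdm16 knockout. There 61.9% were called, with a median log2 fold change of -0.20. In that knockout edgeR called 6 higher and 6 lower, and DESeq2 called 5 higher and 4 lower. In the PR domain knockout 0 were higher and 5 lower (23.8% called, median -0.06). There 2 were higher at an unadjusted p below 0.05 and 0 by edgeR or DESeq2, and DESeq2 called 3 lower. In the Prdm16 knockout, occludin (Ocln), a strand protein, rose by 0.72 ± 0.10 (adjusted p = 7.46e-07) and the basolateral polarity gene Llgl2 by 0.61 ± 0.09 (adjusted p = 2.10e-06). Cldn3 fell there (-1.60 ± 0.23, adjusted p = 1.27e-06). In the PR domain knockout the scaffold gene Tjp1 (-0.22), Cldn4 (-0.36) and Cldn3 (-0.89) fell. Tjp1 also fell in the Prdm16 knockout (-0.21, adjusted p = 0.000246), where Cldn4 did not pass (-0.19, adjusted p = 0.0759). The difference between the knockouts passed for Ocln (0.68, adjusted p = 0.000704) and Llgl2 (0.52, adjusted p = 0.00413) and did not pass for Cldn3 (adjusted p = 0.135).

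Of 14 tested adherens junction and desmosome genes, 6 were higher and 5 lower in the Prdm16 knockout (78.6% called, median -0.01). There edgeR called 6 higher and 3 lower, and DESeq2 called 6 higher and 2 lower. In the PR domain knockout 1 was higher and 7 lower (57.1% called, median -0.13), where DESeq2 called 1 higher and 3 lower. P-cadherin (Cdh3, 0.49 ± 0.05, adjusted p = 7.56e-10) and the desmosomal cadherins Dsg2 (0.58 ± 0.06, adjusted p = 9.14e-09) and Dsc2 (0.65 ± 0.04, adjusted p = 5.47e-13) rose in the Prdm16 knockout, where Cdh1 fell. Afdn, which encodes the actin-linked junction protein afadin, fell to 1028 ± 36.1 normalised fragments in the Prdm16 knockout, against 2688 ± 14.6 in the Prdm16 control (SD, n = 2 each). Its log2 fold change was -1.39 ± 0.05 (adjusted p = 7.06e-19) there and -0.29 ± 0.05 (adjusted p = 0.000116) in the PR domain knockout, and the difference passed (adjusted p = 3.34e-12). Dsc2 also rose in the PR domain knockout (0.50), while plakophilin 2 (Pkp2, -0.49) and beta-catenin (Ctnnb1, -0.19) fell. Pkp2 rose in the Prdm16 knockout (0.29, adjusted p = 0.00160), and the difference between the knockouts passed (0.78, adjusted p = 1.22e-06). The Ctnnb1 locus of the table also carries a microRNA name.

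Of 19 tested epithelial regulators and surface genes other than Grhl2 and Esrp1, 2 were higher and 6 lower in the Prdm16 knockout (42.1% called, median -0.40), and 1 was higher and 3 lower in the PR domain knockout (21.1% called, median -0.06). Both shares were near those over all loci. Grhl3, a relative of Grhl2, rose in both, by 0.88 ± 0.10 (adjusted p = 1.03e-08) in the Prdm16 knockout and 0.65 ± 0.10 (adjusted p = 4.91e-06) in the PR domain knockout, while Grhl2 fell in both. The serine protease gene Prss8 rose (0.67 ± 0.09, adjusted p = 2.61e-07) and the integrin gene Itga6 fell (-0.41 ± 0.05, adjusted p = 2.76e-07) in the Prdm16 knockout. The protease inhibitor gene Spint1 (-0.32) and the hemidesmosome integrin gene Itgb4 (-0.53) fell in the PR domain knockout. Esrp2, the paralogue of Esrp1, passed in neither knockout, at -0.16 in the Prdm16 knockout, while the PR domain knockout gave -0.07.

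Keratins of stratified and other epithelia were low. Of 12 listed, 5 passed the filter on low values, and 1 of these, Krt15, was called in the Prdm16 knockout (1.09 ± 0.43, adjusted p = 0.0461). edgeR called Krt15 and Krt13 there, and DESeq2 called 0 of the 5 (adjusted p = 0.197 for Krt15). In the PR domain knockout 0 of the 5 were called by limma, edgeR or DESeq2, and 0 had an unadjusted p below 0.05. The 5 were Krt10, Krt13, Krt14, Krt15 and Krt20, and Krt20 had the highest mean, 78.7 to 124 normalised fragments over the groups.

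Of 13 mesenchymal genes and repressors of epithelial genes, 5 were higher and 4 lower in the Prdm16 knockout (69.2% called, median 0.25), and 2 were higher and 4 lower in the PR domain knockout (46.2% called, median -0.11). Zeb1, a repressor of Cdh1, had 894 ± 25.5 normalised fragments in the Prdm16 knockout, against 644 ± 36.4 in the Prdm16 control (0.47, adjusted p = 7.59e-07). Its change in the PR domain knockout was 0.05 (adjusted p = 0.650). Zeb2 was called higher in the Prdm16 knockout (0.34, adjusted p = 4.11e-05) and in the PR domain knockout (0.18, adjusted p = 0.0299). The Zeb2 locus also carries a microRNA name. Snai1 (-0.46 and -0.25, in the same order) and Snai2 (0.26 and -0.16) passed in neither. The matrix gene Fn1 rose in the Prdm16 knockout (0.33 ± 0.03, adjusted p = 3.29e-10), whereas Prrx1 (-2.19 ± 0.13), Twist1 (-1.18 ± 0.12) and Tcf4 (-0.64 ± 0.06), transcription factor genes active in mesenchyme, fell. The same 3 fell in the PR domain knockout, with -0.996, -0.78 and -0.44, where vimentin (Vim) fell too (-0.31, adjusted p = 1.37e-08). Vim rose in the Prdm16 knockout (0.25, adjusted p = 2.31e-07), and the difference between the knockouts passed (0.57, adjusted p = 1.38e-10). Zeb1, Zeb2, Snai1 and Snai2 here and Esrp2 above were chosen after their values were seen.

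**Figure D4:**
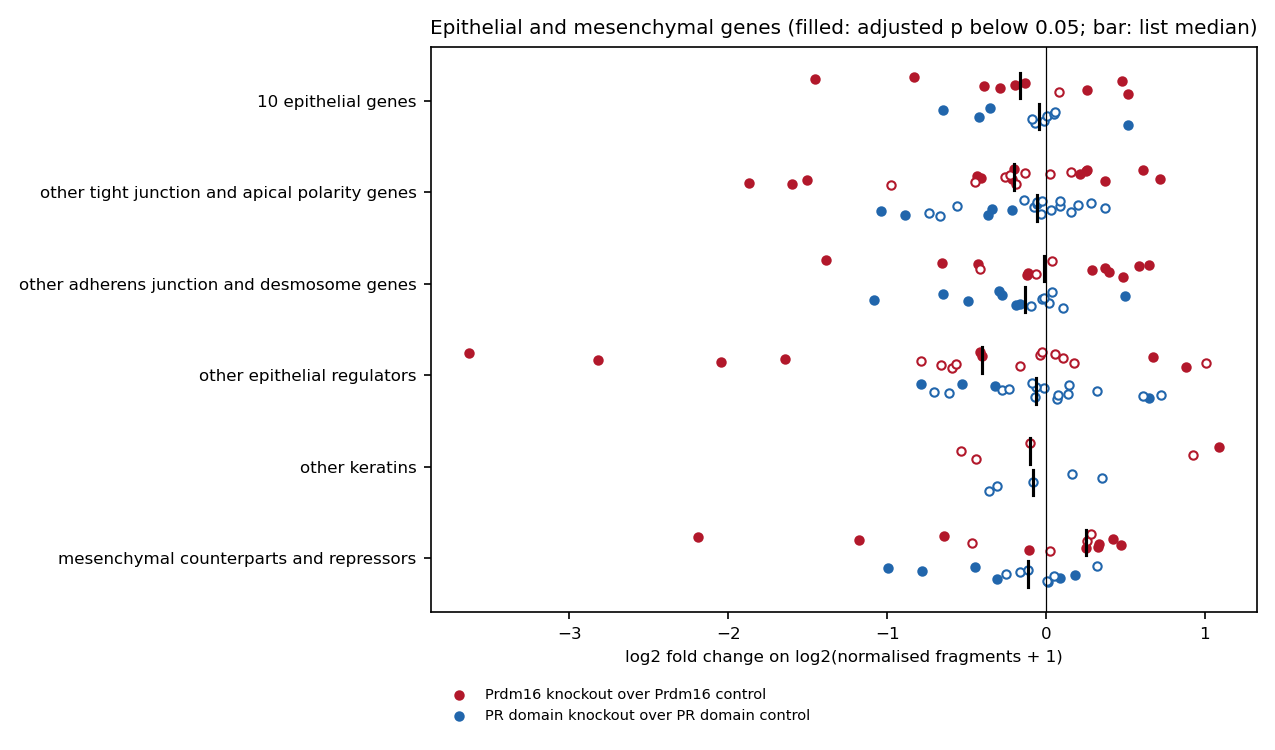
Log2 fold changes (horizontal axis) of each tested gene in the 10 epithelial genes and 5 further lists, in the Prdm16 knockout over the Prdm16 control (red) and the PR domain knockout over the PR domain control (blue). Filled points have an adjusted p below 0.05 and bars are list medians, which run from -0.40 for the other epithelial regulators to 0.25 for the mesenchymal genes in the Prdm16 knockout.

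Embryoid bodies hold several epithelia that carry these keratins and junction proteins, and marker lists of those cell types differed between each knockout and its control. Their counts of called genes also stand beside 39.1% and 19.2% of all loci. Visceral endoderm markers (12 genes, led by Afp and Dab2) summed to 41031 to 41478 normalised fragments in the Prdm16 knockout, against 20059 to 20930 in the Prdm16 control. They summed to 9805 to 9964 in the PR domain knockout, against 7302 to 7314 in the PR domain control. Of these 12, 8 were higher and 1 lower in the Prdm16 knockout, and 10 were higher and 1 lower in the PR domain knockout. Visceral endoderm makes Krt8 and Krt18 in the mouse embryo, and its markers had their highest sum in the 2 libraries where Krt18 and Cldn7 were highest. The sum was also above its control in the PR domain knockout, where Krt18 (-0.01) and Cldn7 (0.05) did not pass. Krt8 passed in neither knockout.

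Mesothelium markers (7 genes beside Krt19, led by Upk3b and Lrrn4) summed to 2531 to 2562 in the Prdm16 knockout, against 1791 to 1983 in the Prdm16 control, and to 4050 to 4125 in the PR domain knockout, against 2704 to 2739 in the PR domain control. The order of the 4 groups in this sum was that of Krt7. With Krt19 counted, 5 of 8 were higher and 2 lower (Krt19 and Lrrn4) in the Prdm16 knockout, and 5 were higher in the PR domain knockout. Lrrn4 did not keep the order of the sum. It fell in the Prdm16 knockout (-0.44, adjusted p = 1.66e-05) and was lower in the PR domain control than in the Prdm16 control (-0.21, adjusted p = 0.0278).

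Grhl2 and Esrp1 were lower in both knockouts, and so were the sums of the surface ectoderm, nephric duct, neuroepithelium and undifferentiated cell lists. The PR domain control was below the Prdm16 control for Esrp1 and for the surface ectoderm, nephric duct and undifferentiated cell sums. It was above for the neuroepithelium sum, while Grhl2 did not pass between these wild-type sets (0.19 ± 0.14, adjusted p = 0.335). Surface ectoderm markers (8 genes, led by Trp63 and Tfap2a) summed to 46.2 to 60.8 in the Prdm16 knockout, against 135 to 164 in the Prdm16 control, and to 66.4 to 76.1 in the PR domain knockout, against 91.9 to 94.3 in the PR domain control. Of 5 tested, 3 were lower in the Prdm16 knockout, while in the PR domain knockout 0 were called by limma, edgeR or DESeq2 and 0 had an unadjusted p below 0.05. Nephric duct and kidney tubule markers (7 genes, led by Gata3 and Lhx1) summed to 123 to 132 in the Prdm16 knockout, against 253 to 266 in the Prdm16 control, and to 42.2 to 57.4 in the PR domain knockout, against 98.4 to 116 in the PR domain control. Of 6 tested, 3 were lower in the Prdm16 knockout, and the PR domain knockout had 2 lower. DESeq2 called 1 lower in the Prdm16 knockout and 2 lower in the PR domain knockout.

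Markers of undifferentiated and epiblast cells (10 genes, led by Dnmt3b and Klf4), which also carry Cdh1 and Epcam, summed to 1280 to 1321 in the Prdm16 knockout, against 2499 to 2576 in the Prdm16 control. They summed to 456 to 527 in the PR domain knockout, against 744 to 755 in the PR domain control. Of 8 tested, 6 were lower and 1 higher in the Prdm16 knockout, and 4 were lower and 1 higher in the PR domain knockout. The higher gene was Klf4 in the Prdm16 knockout (0.80, adjusted p = 1.79e-07). In the PR domain knockout it was Pou5f1 (0.84, adjusted p = 0.00493), where edgeR and DESeq2 called 0 higher. Pou5f1 had 15.3 and 17.4 normalised fragments there, against 9.13 and 8.26 in the PR domain control. Each of these 2 genes fell in the other knockout (Klf4 -0.48, Pou5f1 -0.93). The neuroepithelium list (7 genes, led by Cdh2 and Nes) summed to 1638 to 1639 in the Prdm16 knockout, against 2167 to 2233 in the Prdm16 control, and to 2108 to 2136 in the PR domain knockout, against 2602 to 2648 in the PR domain control. Of 6 tested, 5 were lower in the Prdm16 knockout, and the PR domain knockout had 3 lower.

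Trophoblast markers (9 genes, led by Hand1 and Cdx2) and gut and lung endoderm markers (10 genes, led by Prox1 and Foxa1) did not keep 1 order across the 2 pairs of groups. The trophoblast sum was 1572 to 1625 in the Prdm16 knockout, against 1274 to 1279 in the Prdm16 control, and 724 to 787 in the PR domain knockout, against 893 to 901 in the PR domain control. Of 4 tested, 2 were higher and 2 lower in the Prdm16 knockout, and 1 was higher and 3 lower in the PR domain knockout. DESeq2 called 1 higher and 1 lower in the Prdm16 knockout, and 0 higher and 2 lower in the PR domain knockout. Hand1 alone made up most of the trophoblast sum in every group. It held 1412 and 1339 in the Prdm16 knockout, against 931 and 923 in the Prdm16 control. It held 618 and 664 in the PR domain knockout, against 783 and 774 in the PR domain control. The gut and lung endoderm sum was 713 to 725 in the Prdm16 knockout, against 884 to 902 in the Prdm16 control, and 692 to 740 in the PR domain knockout, against 685 to 697 in the PR domain control. Of 8 tested, 2 were higher and 3 lower in the Prdm16 knockout, and 4 were higher and 1 lower in the PR domain knockout. DESeq2 called 0 higher and 2 lower in the Prdm16 knockout, and 1 higher and 1 lower in the PR domain knockout. None of the 8 lists had a marker at 0 in all 8 libraries, and 4 of the 9 trophoblast markers stayed below 10 normalised fragments in every library. Some genes, such as Sox2 and Foxa2, stand in more than 1 list. The part of these cell types in the values of the 10 genes was not tested.

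**Figure D5:**
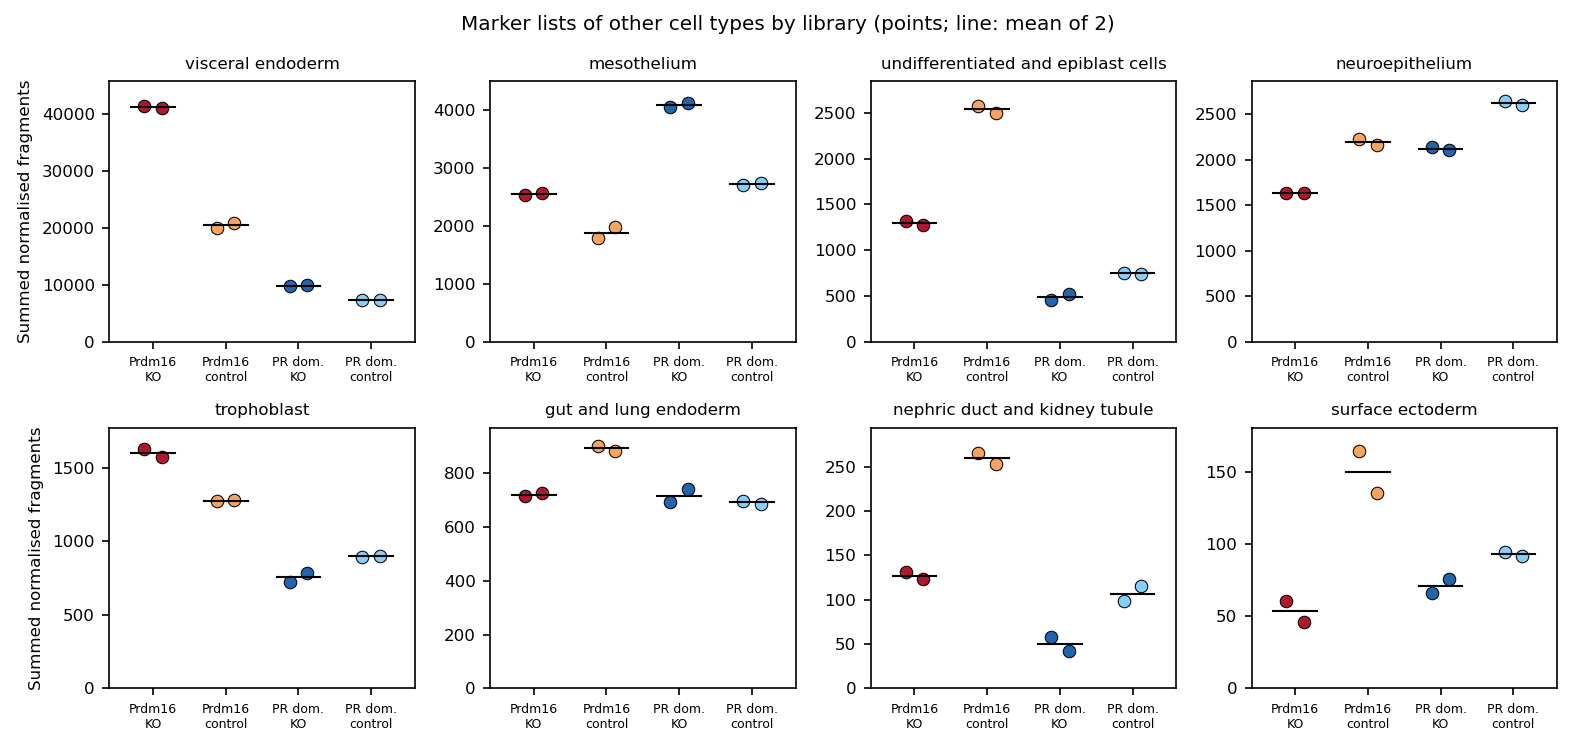
Summed normalised fragments (vertical axes, from 0) of 8 marker lists in the 2 libraries of each group, as points, with a line at the mean. The visceral endoderm sum is highest in the Prdm16 knockout, at 41031 to 41478, and the mesothelium sum is highest in the PR domain knockout, at 4050 to 4125.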

How the data were processed

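RNA of 8 libraries was extracted with Trizol and RNeasy columns and made into Illumina TruSeq libraries, per the labels' protocols. Cufflinks 2.2.1, TopHat2 2.1.1, SAMtools 1.5, deepTools and mm10 are listed, without roles, per the submitters' processing notes. No annotation release or strand setting was given in the sources used here. The authors deposited signal values, per the file headers and values: fragments per locus divided by 1 size factor per library. Divided by each library's step (0.827 to 1.24), 99.99 to 100% of values were whole within 0.1. This gave 6273789 to 9086885 fragments per library on named loci; unnamed loci (1.88 to 2.53%) were left out. The deposited FPKM values, which the authors scaled by transcript length, entered orders, shares and 1 alternative.

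The design named a count test, but since the deposited values were normalised, limma 3.58.1 (R 4.3.3) was fitted as a trend to log2(value + 1) over 4 group means and 8 libraries, for 16623 loci with at least 10 in at least 2 libraries. Benjamini-Hochberg adjusted p below 0.05 was a call. edgeR 4.0.16, DESeq2 1.42.0, other scalings, filters and pseudocounts and leaving out each library were alternatives. The fitting was tested on simulated data. Replicates differed by more than sampling noise (chi-square per degree of freedom 1.40 to 2.23). The spread between replicates of the 10 genes had a median of 3.95% and a maximum of 14.1% (coefficient of variation). Their values rested on at least 47 fragments per library.

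The 10 genes and all lists were chosen with earlier results of these data known, so no list is independent evidence. Named genes were the 10, Prdm16, the 4 genes with the smallest adjusted p per list and knockout, the 2 most abundant markers per list and the loci most like the 10. Genes named otherwise were chosen after their values were seen. A few genes that this rule names are not reported here. Near copies were sought with blastn 2.17.0 among GENCODE M21 transcripts, at 85% identity or more over at least 300 bases.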

Additional observations from a re-analysis of the deposited data

Results flagged for a closer look

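For 4 of the 10 genes, beside 16.4% of all loci, the effect of the Prdm16 knockout differed from that of the PR domain knockout, each measured against its own wild-type set, by limma's test of the difference adjusted over all loci. Krt18 (0.27, adjusted p = 0.00292) and Cldn7 (0.43, adjusted p = 0.00967) were higher in the Prdm16 knockout by comparison. Grhl2 (-0.81, adjusted p = 0.00466) and Esrp1 (-0.48, adjusted p = 0.00704) were lower. With DESeq2 Krt18 passed, and Cldn7 (adjusted p = 0.0848), Grhl2 (0.0660) and Esrp1 (0.0711) did not. On log2(FPKM + 1) 0 of the 4 passed. The 2 wild-type sets themselves differed for Krt18, Cldn7 and Esrp1.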

How the results depend on the processing

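Of 40 member results (10 genes in 4 comparisons), 25 were called. Of these, 12 kept their direction and call under every alternative fitted, 19 did so when FPKM was set aside, and 0 changed direction. The alternatives that moved counts most were FPKM and DESeq2. On log2(FPKM + 1), 5 of the 10 genes were called in the Prdm16 knockout, 1 in the PR domain knockout and 0 for the difference of the knockouts, with 2244, 582 and 199 loci in all, and 1717 loci between the wild-type sets. DESeq2 called 3983, 1797, 1179 and 3388 loci in the same order and 1 of the 10 genes for the difference. Without the filter on low values 1642 loci were called for the difference. Leaving out each library in turn gave 7 to 9 genes in the Prdm16 knockout, 3 to 5 in the PR domain knockout, 3 to 5 for the difference and 8 between the wild-type sets. Loci called ranged over 5028 to 6477, 2180 to 3367, 1950 to 2390 and 4047 to 5675. The cause was not tested, except that these fits hold fewer libraries.

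Values that changed sign all belonged to genes that were not called. For Krt18 in the PR domain knockout they were 0.020 (DESeq2 scaling), 0.012 (TMM), 0.0081 (total fragments), 0.015 (edgeR), 0.024 (DESeq2) and 0.054 (without PR domain knockout replicate 1, where Krt8 was 0.044). Epcam was -0.044 without PR domain knockout replicate 2 and -0.055 without PR domain control replicate 1, and Cldn7 was -0.14 on FPKM and -0.032 without PR domain control replicate 2. The difference for Krt7 was -0.0023 with a pseudocount of 5, -0.060 under total-fragment scaling, and -0.14, -0.070, -0.032 and -0.029 without Prdm16 knockout replicate 2, Prdm16 control replicate 1, PR domain knockout replicate 1 and PR domain control replicate 1. That for Cdh1 was -0.034 under total-fragment scaling and -0.011, -0.0049 and -0.030 without Prdm16 knockout replicate 1, Prdm16 control replicate 1 and PR domain knockout replicate 1. Krt19 between the wild-type sets was -0.037 on FPKM. Over all fits that left out a library, these results ranged over -0.18 to 0.044 for Krt8, -0.084 to 0.054 for Krt18, -0.055 to 0.069 for Epcam and -0.032 to 0.14 for Cldn7 in the PR domain knockout. The differences ranged over -0.14 to 0.14 for Krt7 and -0.030 to 0.084 for Cdh1.

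Same-numbered libraries showed no shared deviation: their deviations correlated at -0.033 and 0.031. That does not settle whether they were handled together. With the replicate number as a block, 9, 4, 4 and 8 of the 10 genes were called, and 6501, 3210, 2719 and 5516 loci.

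With 2 libraries per group, a lone library left after another was left out is assumed to vary like the other groups. Grhl2 rested on 47 fragments at its lowest, so its level is the least precise of the 10.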
